A study of Mus musculus with 139 samples.

Results

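Inner hair cells (IHCs) from the base of the mouse cochlea were compared with IHCs from its apex. The 19 basal and 34 apical cells were chosen by the cell type and region in their labels, with no measured value used, and make up 53 of the 139 single hair cells in the series. All were taken from mice of postnatal days 14 to 16, and each library holds the RNA of 1 cell. The labels give no strain, genotype, treatment, sex or animal for either region. The cells therefore cannot be tied to animals, each region counts as 1 sample, and no test between base and apex could be made. Every difference below describes these libraries and has no replicate check.

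IHCs stand in a single row along the cochlear spiral and pass sound signals to the auditory nerve by releasing glutamate at ribbon synapses. The base of the spiral is tuned to high frequencies and the apex to low ones, an order called tonotopy. Hair cells at the base are known to have shorter stereocilia and to be lost earlier to noise, ageing and ototoxic drugs, and maturation of the organ of Corti runs ahead at the base. The study's design asks how the molecular make-up of hair cells differs between parts of the cochlea.

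Expression is given as CPM, the counts scaled to a common total, either of the counts summed over the cells of a region (the pooled level, scaled with the TMM method) or of a single cell. Differences are log2 of the basal over the apical pooled level, with 1 CPM added to each, so a positive value means a higher level in the base. Pooled levels carry 95% Poisson intervals where given, which cover counting error only and not the spread between cells, and copies of 1 molecule made by PCR were not removed by any identifier named in the sources used here. The titles hold a cell number of unstated meaning. Cells numbered above 100 (7 basal, 17 apical) and up to 100 (12 basal, 17 apical) stood apart in depth and content, so the main results are also given within these 2 series, called the above-100 and the up-to-100 series.

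Basal cells were sequenced more deeply, with 2827490 to 12064320 counts (median 6842128), than apical cells, with 103101 to 11003439 counts (median 3597253). The median number of detected genes was 7616 in basal and 5506 in apical cells. The gap in depth was widest in the up-to-100 series, where the median total was 6688977 in basal and 2121051 in apical cells, against 7120620 and 4820410 in the above-100 series. The up-to-100 series supplied 84901192 of the 136644165 basal counts and 50335352 of the 142506012 apical counts. Pooled levels thus mix the 2 series in unlike shares, and a pooled difference can lie outside the values of both series. No pair among the 53 cells had identical counts. Basal cell 2 stood apart, with 28.6% of its counts in CT010467.1 and 16.0% in mitochondrial genes. The medians of CT010467.1 were 1.76% in basal and 0.786% in apical cells of the above-100 series, and 0.302% and 0.519% in the up-to-100 series. For many genes the cells of 1 region ran from 0 CPM to high levels, so a pooled level can rest on a few cells, and the levels in single cells stand beside it.

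The IHC identity of the labels was checked with marker genes. Otof, which encodes the calcium sensor otoferlin of IHC vesicle release, reached at least 100 CPM in 18 of 19 basal and 31 of 34 apical cells. Its pooled level was 6506 CPM in basal and 5448 CPM in apical cells, a log2 difference of 0.26 (0.60 in the above-100 and −0.67 in the up-to-100 series). Slc17a8, the vesicular glutamate transporter of IHCs, was at 706 CPM in basal and 430 CPM in apical cells, with at least 100 CPM in 10 of 19 basal and 22 of 34 apical cells. It reached that level in 4 of 12 basal and 11 of 17 apical cells of the up-to-100 series, so many basal cells of that series had Otof without much Slc17a8. Tbx2, a transcription factor that sets the IHC fate, was at 180 CPM in basal and 53.7 CPM in apical cells, but it passed 100 CPM in 1 of 12 basal and 0 of 17 apical cells of the up-to-100 series. Atp2a3, on the IHC marker list and coding for a pump that fills internal calcium stores, reached 100 CPM in 9 of 12 basal and 16 of 17 apical cells of that series. Slc7a14, also an IHC marker, was lower in basal cells (−0.98 in the above-100 and −2.33 in the up-to-100 series). It reached 100 CPM in 8 of 19 basal and 19 of 34 apical cells. The whole IHC list had 5 of 11 members past the filter at least 2-fold higher and 2 lower (31.9% and 37.3% of all genes). Summed general hair cell markers had medians of 11371 CPM in basal and 5271 CPM in apical cells above 100, and 3340 and 6094 CPM up to 100. The labels hold for Otof in most cells, while Slc17a8, Slc7a14 and Tbx2 were patchy in the up-to-100 series.

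Genes that mark outer hair cells (OHCs), the neighbouring cells that amplify sound, were lower in basal cells of the above-100 series. Ocm, the gene of the calcium buffer oncomodulin, ran from 0 to 23.7 CPM in the 7 basal cells and from 33.4 to 1989 CPM in the 17 apical cells of that series. The groups did not overlap, as was so for 0.00913% of genes in this direction. Slc26a5, which encodes prestin, the OHC motor protein, had no read in the 7 basal cells and reads in 12 of the 17 apical cells, with a highest level of 318 CPM. Its level stayed at or below 1.06 CPM in basal and 1.24 CPM in apical cells of the up-to-100 series. The whole list had 1 of 12 members past the filter at least 2-fold higher and 9 lower in basal cells (31.9% and 37.3% of all genes), and its summed level in the above-100 series was 49.2 to 654 CPM (median 201) in basal and 58.2 to 13159 CPM (median 818) in apical cells. In 0 of 19 basal and 4 of 34 apical cells, 3 of them above 100, Ocm, Slc26a5 and Ikzf2 together exceeded Otof and Slc17a8. The cell with the OHC marker sum of 13159 CPM had 0.98 CPM of Otof, and 1 other of these 3 had no Otof read. Without these 4 cells the pooled log2 difference was −6.89 for Ocm and −5.15 for Ikzf2, against −7.02 and −5.71 in all cells. Whether those apical libraries hold RNA of neighbouring OHCs was not tested.

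**Figure D1:**
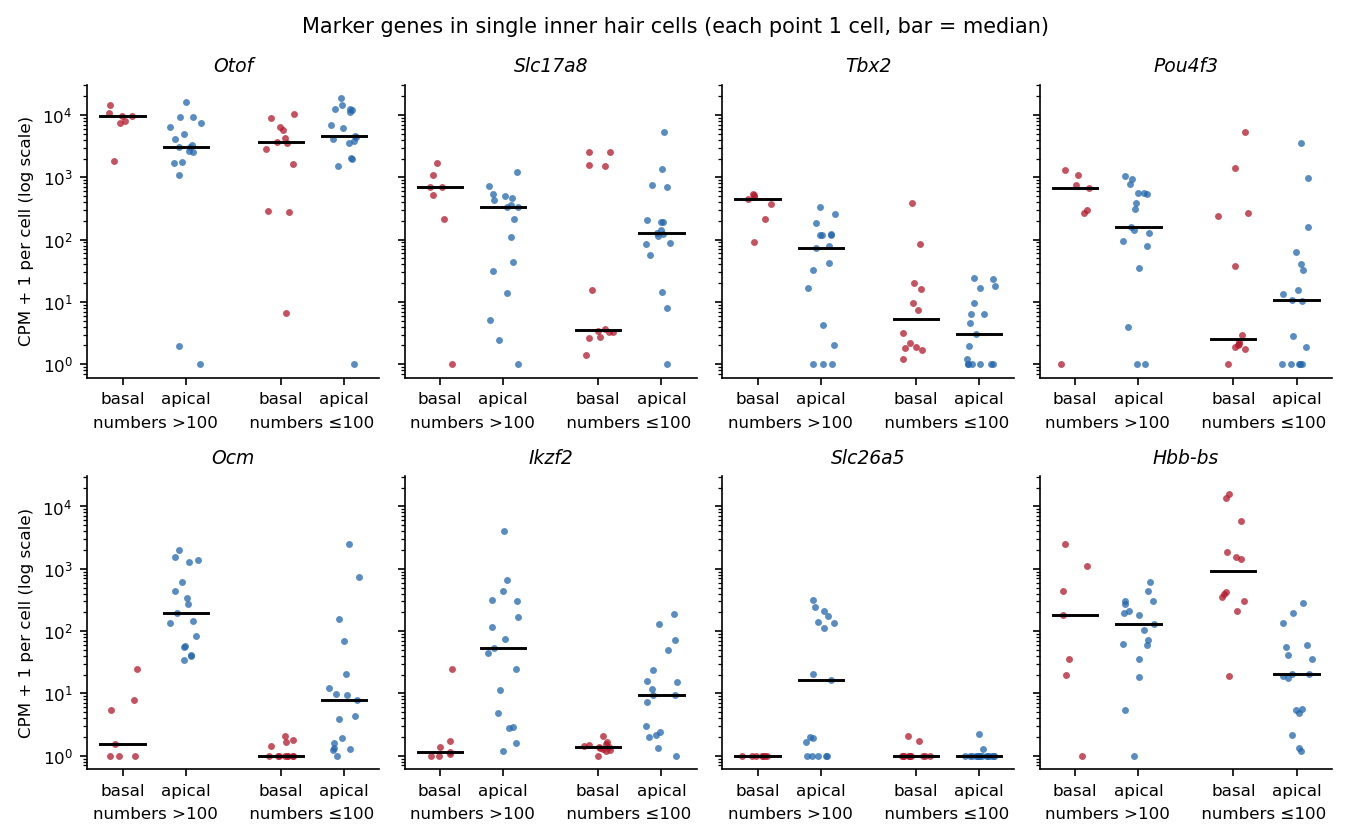
CPM + 1 on a log scale in each cell for IHC markers (Otof, Slc17a8, Tbx2), the hair cell factor Pou4f3, OHC markers (Ocm, Ikzf2, Slc26a5) and the haemoglobin gene Hbb-bs. Points are cells, bars are medians, and basal cells stand left of apical cells within each title-number series. Ocm ran from 0 to 23.7 CPM in basal and from 33.4 to 1989 CPM in apical cells of the above-100 series, and the median of Hbb-bs in the up-to-100 series was 923 CPM in basal and 19.4 CPM in apical cells.

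Of the 10950 genes with at least 5 CPM in either region, 3494 (31.9%) were at least 2-fold higher and 4085 (37.3%) at least 2-fold lower in basal cells. In the above-100 series these shares were 29.9% and 36.1%, and in the up-to-100 series 24.1% and 32.6%. Both series together held 6.94% higher and 12.3% lower in the same direction. By the median of the cells, 5.99% were higher and 8.85% lower. The median over all genes was −0.19, and it moved to −0.02 with DESeq2 size factors and to −0.33 with plain CPM. Large pooled differences were therefore common, and a single gene past 2-fold says little alone. The genes described first passed a stricter rule, which asked for 2-fold in the pool, in the mean of the cells and without the cell that held most counts, and for the same sign in the median cell and in both series. It took 695 genes (6.35%) higher and 622 genes (5.68%) lower in basal cells, and the 12 with the largest differences in each direction were taken for description. Genes of the lists below that are named beyond the first few of a list were chosen after their values had been seen.

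Among the genes higher in basal cells, Ttc24, which encodes a tetratricopeptide repeat protein, separated the cells of the above-100 series. The 7 basal cells had 450 to 1204 CPM (median 836) and the 17 apical cells 0 to 306 CPM (median 0.957), with no overlap, as was so for 0.0365% of genes in this direction. Of the up-to-100 series, 3 of 12 basal and 3 of 17 apical cells reached 10 CPM, and the highest cell was at 802 CPM in basal and 90.1 CPM in apical cells. The gene lies on the minus strand at chr3:88069410-88078304 (GRCm38, GENCODE M21). The pooled level was 399 CPM in basal and 28.4 CPM in apical cells, a log2 difference of 3.77 (4.09 in the above-100 and 3.02 in the up-to-100 series, the second being 1.69 without the top cell of each region). Middle-turn IHCs lay between, at 176 CPM.

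Nectin2 and Gramd1b were high in most basal cells of the above-100 series and in some basal cells of the up-to-100 series. Nectin2, a cell adhesion molecule of the nectin family, ran from 0 to 746 CPM (median 480) in basal and from 0 to 332 CPM (median 64.5) in apical cells of the above-100 series, where 6 of 7 basal cells lay above every apical cell. Of the up-to-100 series, 7 of 12 basal cells lay above the highest apical cell, at 57.7 CPM. Gramd1b, which carries cholesterol from the plasma membrane to the endoplasmic reticulum, had medians of 392 CPM in basal and 28.8 CPM in apical cells of the above-100 series, and of 40.6 and 0.197 CPM in basal and apical cells of the up-to-100 series. Their pooled levels were 1205 against 49.2 CPM (log2 4.59) for Nectin2 and 1004 against 49.8 CPM (log2 4.31) for Gramd1b, basal before apical. The levels of the 2 genes in basal cells thus spread widely, and for Nectin2 1 basal cell held 45% of the pooled counts (log2 4.09 without the top cell of each region).

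Vmo1, whose homologue in birds is a protein of the vitelline membrane of the egg, ranked highest by the rule. Basal cells had 664 CPM (95% Poisson interval 660 to 669) and apical cells 16.0 CPM (15.4 to 16.7), a log2 difference of 5.29. The difference was larger in the up-to-100 series (7.0), where 5 of 12 basal and 0 of 17 apical cells reached 100 CPM, and was 1.12 in the above-100 series. Tspan17, a tetraspanin of the cell membrane, was detected more evenly. All 7 basal cells of the above-100 series had 15.6 to 211 CPM, against 0 in 12 of the 17 apical cells, and in the up-to-100 series 16 of 17 apical cells had no read.

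Other basal genes of the rule encode proteins of varied roles. Fah, the last enzyme of tyrosine breakdown, was at 190 against 6.54 CPM, and Zc3h7b, a zinc finger protein, at 142 against 4.45 CPM, each with the basal level first. Sema3b, a secreted semaphorin, was at 135 and 9.12 CPM in basal and apical cells, Gpc3, a glypican of the cell surface, at 228 and 11.7 CPM, and H19, an imprinted long non-coding RNA, at 53.3 and 2.29 CPM. Pvalb, the calcium buffer parvalbumin, was at 558 and 34.9 CPM in basal and apical cells. In the up-to-100 series its highest basal cell was at 3660 CPM, the basal median was 8.12 CPM and 6 of 12 basal cells reached 10 CPM. The difference of that series was 5.23, and 4.36 without the top cell of each region. Within the above-100 series Sema3b (0.79) and Gpc3 (0.92) stayed under 2-fold. Reads of Gpc3 were thin in that series, with a median of 0 CPM in both regions.

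The genes higher in apical cells included regulators of signalling and transcription. Id2, which binds basic helix-loop-helix (bHLH) factors and keeps them off DNA, ran from 0 to 135 CPM (median 2.48) in basal and from 65.7 to 6435 CPM (median 806) in apical cells of the above-100 series, where 16 of 17 apical cells lay above every basal cell. Basal cells of the up-to-100 series stayed at 0 to 1.70 CPM, while apical cells ran from 0 to 3263 CPM (median 27.3), and 13 of 17 lay above the highest basal cell. The pooled level was 16.5 CPM (15.9 to 17.3, 95% Poisson interval) in basal and 969 CPM (964 to 974) in apical cells, with log2 differences of −5.79 pooled, −5.01 in the above-100 and −9.50 in the up-to-100 series. Middle-turn IHCs were at 381 CPM. The gene lies on the minus strand at chr12:25093799-25097140. Id2 was thus low in nearly all basal cells of both series.

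Socs2, an inhibitor of cytokine and growth hormone signalling, was low in the same way. Basal cells had 0.249 to 48.9 CPM in the above-100 and 0 to 2.13 CPM in the up-to-100 series, against 0 to 1302 CPM (median 224) and 0 to 2877 CPM (median 49.7) in apical cells. Of the apical cells, 12 of 17 in the above-100 series and 11 of 17 in the up-to-100 series lay above every basal cell. Cited2, a transcriptional co-regulator that competes for the coactivators CBP and p300, was at 3.0 CPM in basal and 174 CPM in apical cells, a log2 difference of −5.45. Its highest basal cell was at 30.4 CPM in the above-100 and 0.502 CPM in the up-to-100 series, and 9 and 11 of 17 apical cells of these series lay above those values. Wls, which escorts Wnt proteins to the cell surface, was at 4.43 CPM in basal and 515 CPM in apical cells (log2 −6.57), with 1 apical cell of the up-to-100 series at 72346 CPM.

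The remaining apical genes of the rule were Ocm, described above, and 7 genes of trafficking, signalling and RNA handling. Bmp2k, a kinase named for its induction by a bone morphogenetic protein, was at 3.31 and 273 CPM in basal and apical cells, and Rab11b, a GTPase of recycling endosomes, at 2.87 and 124 CPM. Wdfy3, a scaffold for autophagy of protein aggregates, was at 49.7 and 772 CPM, and Gid4, a substrate receptor of a ubiquitin ligase, at 11.1 and 416 CPM, basal before apical. Ddah1, which breaks down methylarginines that inhibit nitric oxide synthase, was at 11.4 and 242 CPM in these regions, Bzw1, a regulator of translation initiation, at 46.2 and 1056 CPM, and Swt1, an endonuclease of RNA surveillance in yeast, at 5.49 and 233 CPM. In the median cell of the up-to-100 series, 5 of these genes (Bzw1, Ddah1, Gid4, Rab11b and Swt1) were at 0.0733 to 0.378 CPM in basal and at 0 CPM in apical cells, and 4 to 6 of the 17 apical cells lay above every basal cell. In the above-100 series the median cell was lower in the base for all 12 apical genes.

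**Figure D2:**
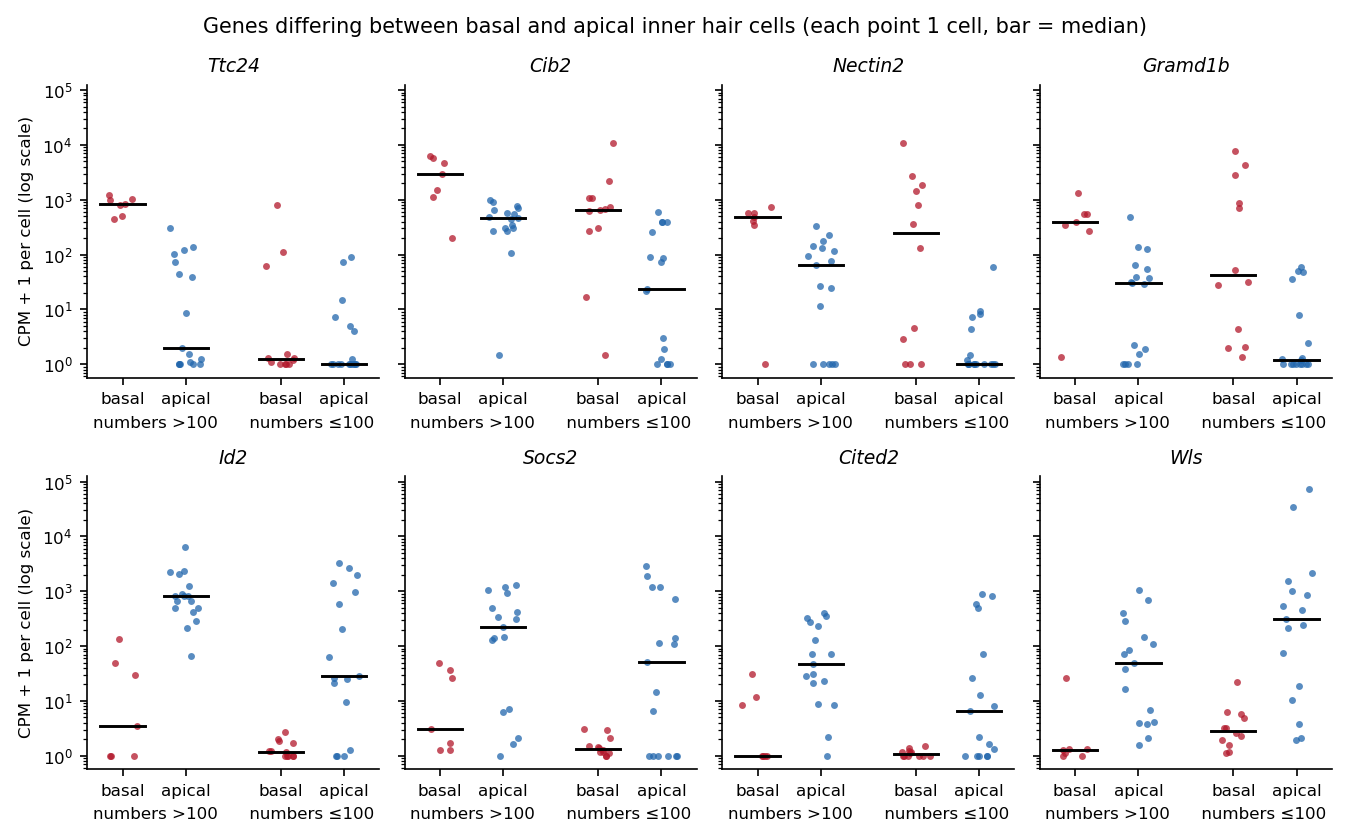
CPM + 1 on a log scale in each cell for 4 genes higher in basal (Ttc24, Cib2, Nectin2, Gramd1b) and 4 higher in apical IHCs (Id2, Socs2, Cited2, Wls). Points are cells, bars are medians, and basal cells stand left of apical cells within each series. In the above-100 series the 7 basal cells had 450 to 1204 CPM of Ttc24, all above the 17 apical cells, and 16 of 17 apical cells had more Id2 than every basal cell.

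The middle turn lay between base and apex in the pooled level of 11 of the 12 basal genes, Sema3b being the exception, and of 11 of the 12 apical genes, with Wls the exception. Among all genes at least 2-fold higher or lower in the base, 57.2% and 58.4% had an intermediate middle level, against 45.7% of all genes, and a wider gap leaves more room for such a level. Of these 24 genes, 7 share exon bases with a gene on the opposite strand (Bmp2k, Rab11b, Wdfy3, Gramd1b, H19, Nectin2 and Zc3h7b) and H19 also contains a microRNA gene, and the sources used here do not say whether the libraries keep strand, so the reads of partners cannot be separated.

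Promoters of 4 of these genes are shown because Id2 acts on bHLH factors, which bind the E-box, CANNTG. Their levels differed in the same direction in both series, as the rule asked of all 24 genes. The windows run from 250 bases before to 50 bases after the start and come from RefSeq on GRCm38.p6. Capitals mark E-boxes, a motif that is its own reverse complement and so covers both strands. Vmo1 (chr11:70514567-70514866, minus strand) holds 0 matches, Ttc24 (chr3:88078255-88078554, minus strand) holds 2, Id2 (chr12:25096043-25096342, minus strand) holds 1 and Cited2 (chr10:17722978-17723277, plus strand) holds 2, CACGTG and CAGCTG, the first being a form that Bhlhe41 binds. The 5′ end of the annotated Id2 gene in GENCODE M21 lies outside its window.
Vmo1: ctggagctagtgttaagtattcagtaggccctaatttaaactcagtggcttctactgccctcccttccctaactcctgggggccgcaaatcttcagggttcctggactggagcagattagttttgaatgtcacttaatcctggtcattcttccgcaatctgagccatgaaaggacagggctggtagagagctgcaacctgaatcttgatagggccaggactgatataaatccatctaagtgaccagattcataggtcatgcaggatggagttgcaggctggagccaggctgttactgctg
Ttc24: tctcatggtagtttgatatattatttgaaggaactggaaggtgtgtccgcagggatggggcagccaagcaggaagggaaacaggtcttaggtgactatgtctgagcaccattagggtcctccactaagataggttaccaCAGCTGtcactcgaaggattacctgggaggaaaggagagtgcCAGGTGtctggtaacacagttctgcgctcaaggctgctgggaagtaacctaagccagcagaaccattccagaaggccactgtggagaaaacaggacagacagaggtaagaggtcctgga
Id2: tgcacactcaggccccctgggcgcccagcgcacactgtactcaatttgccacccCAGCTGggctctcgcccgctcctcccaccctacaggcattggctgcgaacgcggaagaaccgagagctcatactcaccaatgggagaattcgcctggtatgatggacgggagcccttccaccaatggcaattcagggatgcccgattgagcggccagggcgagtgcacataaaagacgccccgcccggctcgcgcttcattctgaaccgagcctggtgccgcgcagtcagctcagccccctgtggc
Cited2: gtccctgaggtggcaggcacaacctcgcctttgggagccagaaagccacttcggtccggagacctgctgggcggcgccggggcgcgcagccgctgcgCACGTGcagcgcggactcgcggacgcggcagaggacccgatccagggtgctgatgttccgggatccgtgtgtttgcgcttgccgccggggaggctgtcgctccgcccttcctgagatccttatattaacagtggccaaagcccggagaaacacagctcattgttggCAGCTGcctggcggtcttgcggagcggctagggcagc

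These 4 were picked after their levels and matches had been seen. Of the 24 genes of the rule taken for description, 18 had a promoter entry. Among these, 4 of 8 basal and 8 of 10 apical genes held an E-box. The share was 72.3% of the 32851 promoters of this length, whose median was 1 match. Both counts are small, and a match is not a binding site.

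Non-overlapping cells were rare. In the above-100 series 4 genes (0.0365% of those tested) had every basal cell above every apical cell, and 1 gene (0.00913%), Ocm, had every basal cell below. Besides Ttc24, the 4 were Mlxipl, Armcx2 and mt-Co1, named here because of this pattern. Mlxipl encodes ChREBP, a glucose-responsive transcription factor of glycolytic and lipid genes, and had 3.40 to 218 CPM in basal cells (median 33.3) and 0 to 0.674 CPM in apical cells. Its log2 difference was 5.26 in the above-100 and 4.86 in the up-to-100 series. Armcx2, an armadillo repeat protein, had 85.9 to 665 CPM in basal and 0 to 24.2 CPM in apical cells, with log2 differences of 6.48 and 2.18 in the above-100 and up-to-100 series.

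In the up-to-100 series 4 genes (0.0365%) had every basal cell above every apical cell, and no gene (0.0%) had the reverse. They were Lmo4, Cox6b1, Eef1d and Tuba1b, again named for this pattern. Lmo4, a LIM-only transcriptional cofactor, had 131 to 7704 CPM in basal and 0 to 87.3 CPM in apical cells of this series, and Cox6b1, a subunit of cytochrome c oxidase, had 298 to 15592 CPM in basal and 0 to 29.1 CPM in apical cells. Within the above-100 series the log2 differences of these 4 genes were 0.46, −0.63, −0.32 and −1.98, in the order named. None of the genes separated the cells in both series. The 2 series therefore did not show the same separating genes, and the shallower apical cells of the up-to-100 series, with a median of 2121051 counts, lie beside that result without a test of their part in it.

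**Figure D3:**
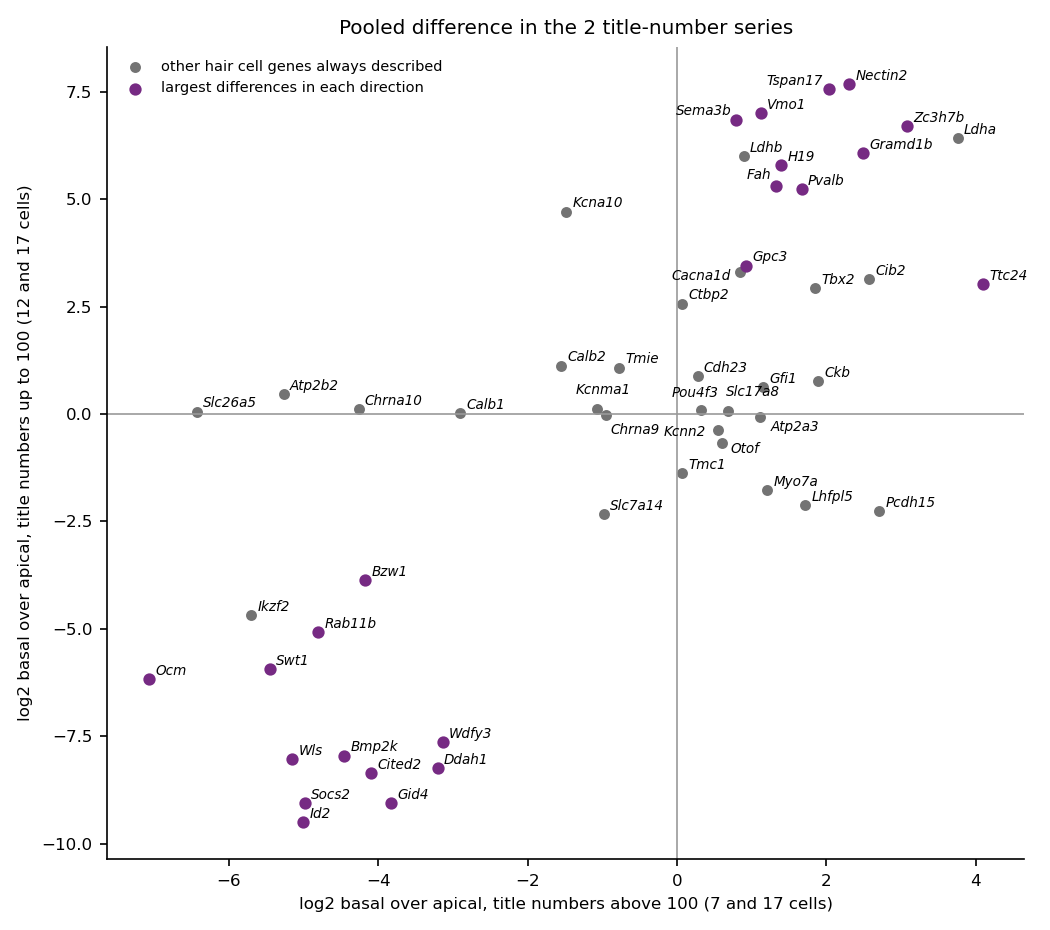
Log2 difference of pooled levels, basal over apical IHCs, in the above-100 (x axis) and the up-to-100 (y axis) title-number series, for 23 genes of the rule and the other hair cell genes always described. Genes at the upper right or lower left differ alike in both series. Id2 lies at −5.01 and −9.50 and Ttc24 at 4.09 and 3.02, while Pcdh15 (2.71 and −2.26) and Atp2b2 (−5.27 and 0.47) take opposite signs in the 2 series.

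Genes of the mechanotransduction complex, which turns deflection of the stereocilia into a current, were led by Cib2, a calcium- and integrin-binding subunit of the channel. Cib2 ran from 199 to 6368 CPM (median 2890) in basal and from 0.492 to 1006 CPM (median 464) in apical cells of the above-100 series, and from 0.502 to 10662 CPM (median 660) and from 0 to 589 CPM (median 22.6) in basal and apical cells of the up-to-100 series. Above every apical cell lay 6 of 7 basal cells in the above-100 and 8 of 12 in the up-to-100 series. The pooled level was 2396 CPM in basal, 1341 CPM in middle and 364 CPM in apical cells, and the log2 difference was 2.72 (2.57 in the above-100 and 3.14 in the up-to-100 series). The gene lies at chr9:54544794-54560218 and shares exon bases with an opposite-strand gene, so the same limit on strand applies.

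Of the 14 genes of this list, 9 passed the level filter, of which 4 were at least 2-fold higher in basal cells and 0 lower (31.9% and 37.3% of all genes). Besides Cib2 these were the tip-link cadherin Pcdh15 (97.1 CPM in basal, 22.2 CPM in apical cells), the scaffold Ush1c, known as harmonin (501 and 165 CPM), and Lhfpl5, which couples the tip link to the channel (675 and 272 CPM). Ush1c was higher in both series (1.80 and 1.38), whereas Pcdh15 and Lhfpl5 were higher in the above-100 series (2.71 and 1.71) and lower in the up-to-100 series (−2.26 and −2.13). Pcdh15 in the up-to-100 series did not exceed 7.93 CPM in basal and 38.3 CPM in apical cells. The channel subunit Tmc1 was at 135 CPM in basal and 167 CPM in apical cells (log2 −0.30), Tmie at 77.7 and 59.4 CPM (0.38) and the upper tip-link cadherin Cdh23 at 68.6 and 70.3 CPM (−0.04), and these 3 pooled levels differed by less than 2-fold. Without the top cell of each region the difference of Tmie was −1.07. The list median was 0.77, with 1.20 in the above-100 and −1.37 in the up-to-100 series. Over all genes of the main filter the medians were −0.19 pooled, −0.17 in the above-100 and −0.02 in the up-to-100 series. The last was −1.03 over the 6751 genes that passed the filter within the up-to-100 series.

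The stereocilia bundle list had 9 of 33 members (27.3%) at least 2-fold higher and 5 (15.2%) lower in basal cells, both under the 31.9% and 37.3% of all genes, with a median of 0.18. Myo3a, a motor that carries cargo to stereocilia tips, was at 323 and 39.8 CPM in basal and apical cells (3.32 in the above-100 and 2.11 in the up-to-100 series, the second being −0.95 without the top cell of each region), Ptprq, a phosphatase of shaft connectors, at 711 and 134 CPM (3.12 and 0.80), and Gpsm2, which sets the bundle's shape, at 409 and 96.2 CPM (1.61 and 3.75). On the apical side stood Strc, the tectorial membrane attachment protein stereocilin (0.0759 and 17.7 CPM), Clrn2 (1.71 and 32.3 CPM), the capping protein Eps8 (0.98 and 17.8 CPM) and Actb, the cytoplasmic beta actin (3724 and 10545 CPM), basal before apical. In the above-100 series Strc, Clrn2 and Eps8 were at −5.0, −4.16 and −3.72, and in the up-to-100 series at −0.21, 0.17 and 0.46.

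Ribbon synapse and active zone genes had more members higher in basal cells in the pool than within either series. Of 23 members past the filter 11 (47.8%) were at least 2-fold higher and 1 (4.35%), Synj1, a phosphatase of vesicle recycling, was lower in basal cells, against 31.9% and 37.3% of all genes. Within the above-100 series 6 were higher and 1 lower, against 29.9% and 36.1% of all genes there. Within the up-to-100 series 9 were higher and 7 lower, against 24.1% and 32.6%. The list median was 0.93 pooled, 0.62 in the above-100 and 0.10 in the up-to-100 series. Rims3 stood at 145 and 17.1 CPM in basal and apical cells, Rims2 at 246 and 69.8 CPM (2.28 in the above-100 and −2.29 in the up-to-100 series), and the calcium channel Cacna1d, which carries the IHC presynaptic current, at 362 and 178 CPM. No member was at least 2-fold higher in both series, against 6.94% of all genes. By the median of the cells 1 of the 23 was at least 2-fold higher, against 5.99%. Among 23 members both counts lie near these shares. The ribbon protein gene Ctbp2 was at 65.6 and 23.6 CPM in basal and apical cells pooled, but its median cell was at 0.881 CPM in the base and 0.965 CPM in the apex.

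Glycolysis genes were, of the 31 lists counted, the one with the highest share on the basal side. Of 19 members past the filter 14 were at least 2-fold higher and 1, Pfkp, a phosphofructokinase subunit, was lower, with a median log2 difference of 1.74 against −0.19 over all genes. The count higher in both series was 7 of 19, against 6.94% of all genes, and 6 were higher and 0 lower by the median of the cells, against 5.99% and 8.85%. Without the cell that held most counts of each gene 15 were higher and 2 lower, against 21.7% and 36.5%. The 7 included Aldoa, the muscle-type aldolase (588 CPM in basal and 112.1 CPM in apical cells; 2.79 in the above-100 and 1.05 in the up-to-100 series), Pkm, a pyruvate kinase (225 and 54.3 CPM; 1.74 and 3.27), and Pgk1, a phosphoglycerate kinase (40 and 18.7 CPM; 1.34 and 2.23). Without the top cell of each region Pgk1 came to −0.12. The glucose transporter Slc2a1 changed sign, with 2.23 in the above-100 and −5.62 in the up-to-100 series, and so did the enolase Eno1 (1.94 and −3.61).

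The summed level of the glycolysis list separated the cells of the above-100 series. It was 1499 to 5322 CPM (median 2841) in the 7 basal cells and 1.97 to 1082 CPM (median 569) in the 17 apical cells, while the 13 middle-turn cells of that series had 113.9 to 3192 CPM (median 1991). In the up-to-100 series the medians were 750 CPM in basal, 156 CPM in middle and 126 CPM in apical cells, and the ranges overlapped, at 8.94 to 1871 CPM in basal and 7.32 to 1185 CPM in apical cells. This list and that of the transcription factors below had already been seen to differ in these data, so their choice is not independent of the result. Slc25a4, the carrier that exchanges ATP for ADP across the inner mitochondrial membrane, ran from 446 to 1735 CPM in basal and from 0 to 901 CPM in apical cells of the above-100 series, with 5 of 7 basal cells above every apical cell. Ckb, the brain-type creatine kinase, had medians of 342 CPM in basal and 41 CPM in apical cells of that series, and of 3.14 and 2.63 CPM in the up-to-100 series.

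Mitochondrially encoded genes other than mt-Co1 were mostly lower in basal cells of the above-100 series, with no such direction in the up-to-100 series. Of 10 past the filter, 1, mt-Co1, was at least 2-fold higher and 6 were lower in the pool, against 31.9% and 37.3% of all genes. The above-100 series gave 1 higher and 8 lower, against 29.9% and 36.1%. By the median of the cells 0 were higher and 8 lower, against 5.99% and 8.85%. The list median was −1.05 pooled, −1.67 in the above-100 and −0.22 in the up-to-100 series. The up-to-100 series gave 4 higher and 3 lower, against 24.1% and 32.6% of all genes there. mt-Co1, a core subunit of cytochrome c oxidase, ran from 10322 to 36775 CPM in basal and from 1845 to 9750 CPM in apical cells of the above-100 series, while mt-Atp6, an ATP synthase subunit, ran from 0.438 to 18.4 CPM in basal and from 2.64 to 288 CPM in apical cells. The up-to-100 medians of mt-Co1 were 126 CPM in basal and 293 CPM in apical cells. Reads of mitochondrial genes have near-identical copies in the nuclear genome, and the sources used here do not say how such reads were counted. Of 73 nuclear respiratory chain genes, 17 (23.3%) were at least 2-fold higher and 21 (28.8%) lower, both under the shares of all genes, with a median of −0.01. The above-100 series gave 10 higher and 28 lower, against 29.9% and 36.1% of all genes there, so the share lower was near that of all genes. The up-to-100 series gave 30 higher and 13 lower, against 24.1% and 32.6%. Ndufb9, a complex I subunit, was higher in both series (1.54 and 6.18), with 139 to 745 CPM in basal and 1.24 to 756 CPM in apical cells of the above-100 series, and Dlst, of the citric acid cycle, was at 273 CPM in basal and 20.7 CPM in apical cells (1.85 and 7.96 in the above-100 and up-to-100 series).

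Transcription factors and regulators of the Id, Hes and SOCS families were more often lower in basal cells. Of 29 members past the filter 4 (13.8%) were at least 2-fold higher and 14 (48.3%) lower in basal cells, against 31.9% and 37.3% of all genes. In the up-to-100 series 7 of the 29 were higher and 11 lower, near the 24.1% and 32.6% of all genes in that series. In both series 8 were lower, against 12.3% of all genes. The median was −0.77 (−0.88 in the above-100 and 0.00 in the up-to-100 series). After Id2 and Socs2, the bHLH repressor Bhlhe41 was at 3.75 and 259 CPM in basal and apical cells, Ikzf2, a zinc finger factor of OHC identity, at 2.09 and 160 CPM, Nr2f2, an orphan nuclear receptor, at 88.1 and 777 CPM, Rfx3, a regulator of ciliary genes, at 4.44 and 78.4 CPM and Id4 at 86.2 and 354 CPM. All 5 pooled levels were at least 2-fold lower in basal cells of both series. The hair cell factor Pou4f3, at 601 and 444 CPM in basal and apical cells, had differences of 0.43 pooled, 0.32 in the above-100 and 0.10 in the up-to-100 series. Gfi1, another such factor, was at 31 and 17.4 CPM pooled (0.80, with 1.15 in the above-100 series), and no cell of the up-to-100 series passed 1.37 CPM. Of the above-100 series 6 of 7 basal and 4 of 17 apical cells had at least 10 CPM of Gfi1. The paralogue Nr2f1, at 246 CPM in basal and 237 CPM in apical cells, had a difference of 0.05 (−0.60 without the top cell of each region).

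On the basal side of this list stood Tbx2 and Barhl1. Tbx2 ran from 89.6 to 536 CPM (median 451) in basal and from 0 to 334 CPM (median 72.0) in apical cells of the above-100 series, where 5 of 7 basal cells lay above every apical cell, and the log2 differences were 1.84 and 2.93 in the above-100 and up-to-100 series. The second rests largely on 1 basal cell at 388 CPM, with medians of 4.32 CPM in basal and 2.08 CPM in apical cells, and was 1.33 without the top cell of each region. Barhl1, a homeobox factor needed for hair cell survival in mice, was at 11.7 and 2.60 CPM in basal and apical cells (1.84 and 2.08). Ikzf2 in the above-100 series ran from 0 to 23.5 CPM in basal and from 0.182 to 3978 CPM in apical cells, and 11 of 17 apical cells lay above every basal cell. The same held for 14 of 17 apical cells of the up-to-100 series, with basal cells at 0 to 1.07 CPM and apical cells at 0 to 185 CPM.

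Genes known from tonotopic gradients in the developing cochlear duct gave no uniform direction. Of 14 past the filter 3 (21.4%) were at least 2-fold higher and 6 (42.9%) lower in basal cells, against 31.9% and 37.3% of all genes, with a median of −0.17. Inhba, an activin subunit that is highest at the base of the embryonic duct, was at 7.78 CPM in basal and 95.3 CPM in apical cells and lower in both series (−2.96 and −5.65). Bmp4 and Efnb2 were lower in the base of the above-100 series (−5.28 and −4.79) and not in the up-to-100 series (1.15 and 0.34, with 0.55 and −1.92 without the top cell of each region), and Bmp7 had 0.311 and 7.82 CPM pooled in basal and apical cells.

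Calcium handling genes had shares near those of all genes. Of 31 members 8 (25.8%) were at least 2-fold higher and 12 (38.7%) lower in basal cells, against 31.9% and 37.3%. The counts were 7 and 14 in the above-100 series, against 29.9% and 36.1% of all genes there. In the up-to-100 series they were 11 and 6, against 24.1% and 32.6%. Atp2b1, a plasma membrane calcium pump, was at 4744 CPM in basal and 1460 CPM in apical cells. Its differences of 0.86 in the above-100 and 1.28 in the up-to-100 series were both below the pooled one. Atp2b2, the pump of hair bundles, was instead at 50.2 and 542 CPM in basal and apical cells. Among cells of the above-100 series Atp2b2 ran from 0 to 60.2 CPM in basal and from 0 to 3811 CPM (median 774) in apical cells, with 14 of 17 apical cells above every basal cell. This order did not hold in the up-to-100 series, with 0 to 658 CPM in basal and 0 to 246 CPM in apical cells. Calb2, which encodes calretinin, also changed sign, with medians of 276 CPM in basal and 852 CPM in apical cells of the above-100 series and of 96.7 and 27.3 CPM in the up-to-100 series.

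Immediate early and stress response genes, which are induced within minutes by stimulation or handling, were lower in basal cells for 12 of 19 members (63.2%) and higher for 1 (5.26%), Ier3, against 37.3% and 31.9% of all genes. Within the above-100 series 11 were lower and 2 higher, against 36.1% and 29.9% of all genes there. In the up-to-100 series 6 of the 19 were lower and 3 higher, against 32.6% and 24.1%, so the count lower was near its share. The list medians were −1.12 and −0.02 in the above-100 and up-to-100 series. Of Ier3 1 basal cell held 94.1% of the counts (log2 5.11, and 1.74 without the top cell of each region). Fosb ran the other way in the above-100 series, with medians of 155 CPM in basal and 0.807 CPM in apical cells. Junb was at 22.6 and 100.6 CPM in basal and apical cells, Egr1 at 122 and 336 CPM and Dusp1 at 12.8 and 42.9 CPM. Antioxidant genes were lower for 15 of 31 members (48.4%) and higher for 7 (22.6%), against 37.3% and 31.9% of all genes, and 7 were lower in both series, against 12.3%. Their median was −0.94 pooled, −0.80 in the above-100 and −0.13 in the up-to-100 series. Nfe2l2, the factor NRF2 that induces many of them, was at 8.97 and 129 CPM in basal and apical cells, Gclm, of glutathione synthesis, at 22.7 and 102.9 CPM and the thioredoxin reductase Txnrd1 at 0.167 and 28 CPM, while Gsr, the glutathione reductase, was at 101.9 and 33.9 CPM. The superoxide dismutase Sod1 was at 6599 CPM in basal and 10040 CPM in apical cells, a log2 difference of −0.61.

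**Figure D4:**
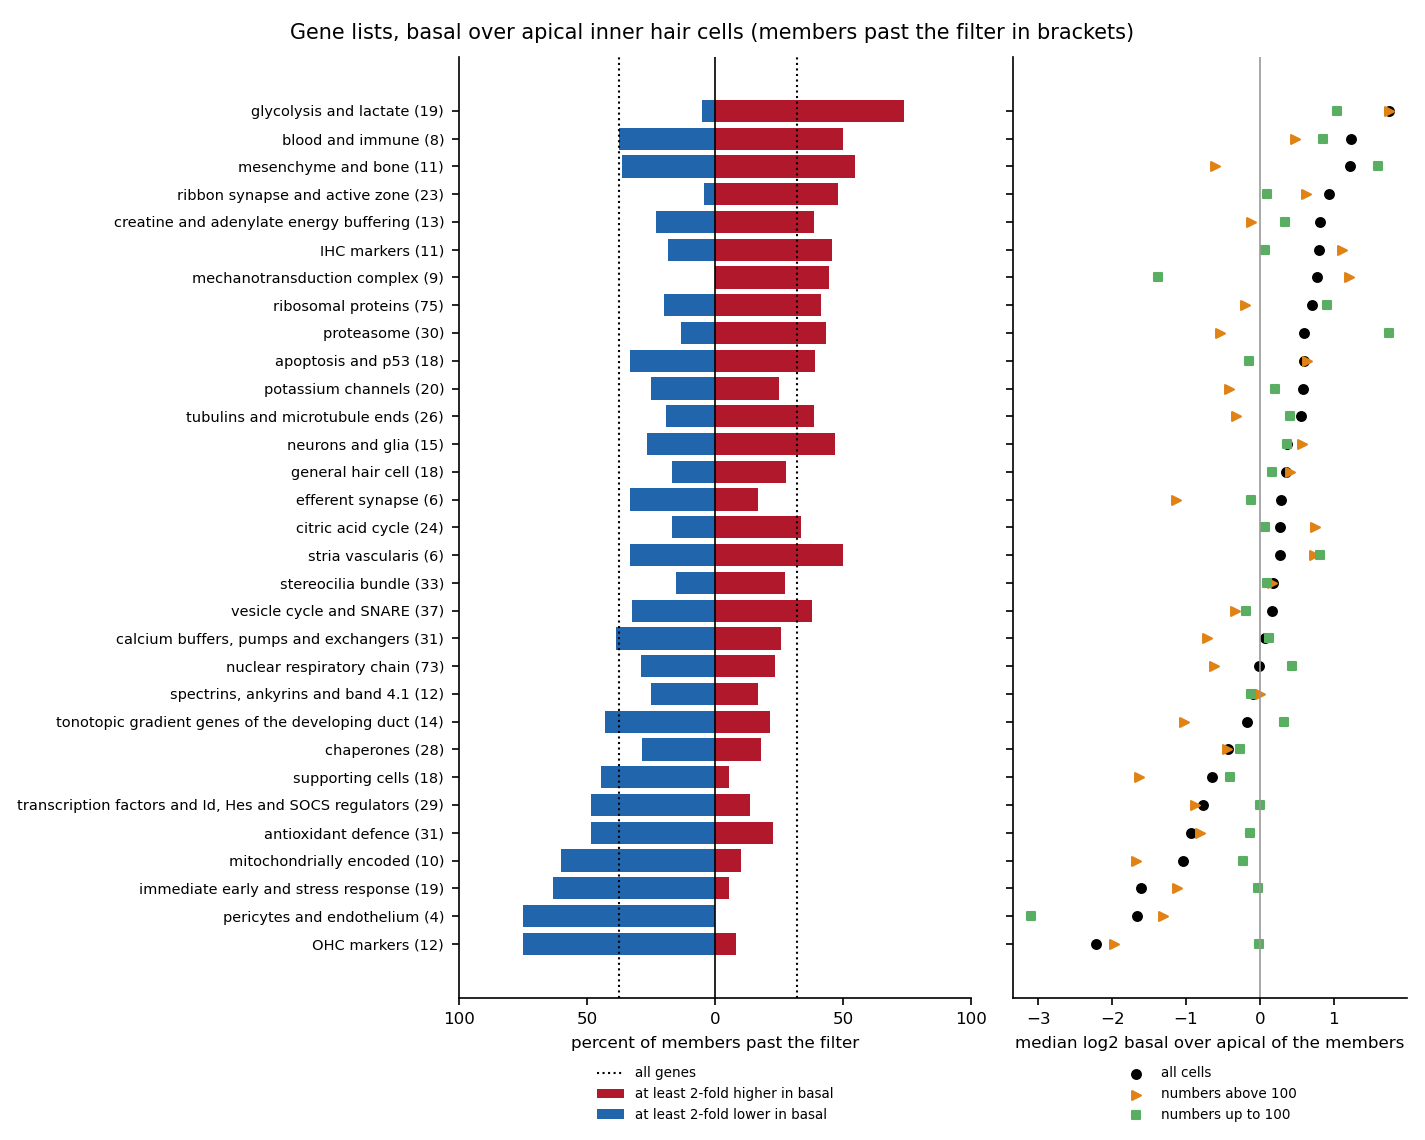
Left, the percent of each list's members past the filter that were at least 2-fold higher (red) or lower (blue) in basal IHCs, with dotted lines at 31.9% and 37.3% for all genes. Right, the median log2 difference, basal over apical, in all cells and in each title-number series. The glycolysis list reaches 73.7% higher with medians of 1.74, 1.74 and 1.05, and the OHC marker list 75% lower with medians of −2.22, −1.97 and −0.01.

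Markers of other cell types differed between the regions as well and stand beside all results above. The summed supporting cell markers were at 99.5 to 8089 CPM (median 1576) in basal and 380 to 22313 CPM (median 9110) in apical cells of the above-100 series, and the list had 1 of 18 members (5.56%) at least 2-fold higher and 8 (44.4%) lower, against 31.9% and 37.3% of all genes. Epyc, a matrix proteoglycan, and Itih5 led that side, with 16.5 and 516 CPM and with 1.18 and 336 CPM in basal and apical cells. The defining supporting cell factor Sox2 was at 3.36 CPM in basal and 15 CPM in apical cells. For the up-to-100 series the medians of the supporting cell sum were 3642 CPM in basal and 3633 CPM in apical cells. The part of supporting cell RNA in the differences above was not tested.

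Other markers in the up-to-100 series were higher in basal cells. The mesenchyme sum had medians of 5896 CPM in basal and 611 CPM in apical cells, and the blood sum 2238 and 587 CPM. Hbb-bs, a beta globin, lay at 17.9 to 15643 CPM in basal and 0.188 to 284 CPM in apical cells, with 10 of 12 basal cells above every apical cell. Its above-100 medians were 184 CPM in basal and 131 CPM in apical cells, and those of the mesenchyme sum 1302 and 2878 CPM. In the pool of both series 8 of 20 members of the blood list passed the filter, 4 (50%) higher and 3 (37.5%) lower. Of the mesenchyme list 11 of 20 did, 6 (54.5%) higher and 4 (36.4%) lower. All genes gave 31.9% higher and 37.3% lower, so the shares lower were near those of all genes. The part of such RNA in the differences of the up-to-100 series was not tested.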

How the data were processed

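The deposited table holds whole-number read counts per gene and cell, made by the authors with Trimmomatic, HISAT2 and featureCounts of Subread 1.4.6 on GRCm38/mm10, per the submitters' processing notes. Each library is 1 cell, sequenced as 43-base reads. The sources used here state neither strandedness, molecular identifiers, animals nor what the title numbers mean. Regions and cell types came from the labels. Gene names were matched to GENCODE M21 (54587 of 55335 lines by versioned identifier, 55154 without the version), and the 181 lines without a symbol held 0.00733% of counts.

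Counts were summed over the cells of each region and scaled by TMM (edgeR 4.0.16, R 4.3.3) over the 6 groups of region and hair cell type. Genes with at least 5 CPM in basal or apical IHCs entered (10950), and differences are log2 with 1 CPM added. The cells are no replicates, so no p-value was computed. Genes were named where the higher region had at least 10 CPM and reads in 50% or more of its cells, with at least 2-fold and the same sign pooled, by the mean of the cells and without the top cell of each region, and the same sign by the median cell and in both title-number series. The 12 with the largest smallest difference per direction, up to 4 members per list and 32 hair cell genes were taken, of which a few are not reported here. The steps were tested on simulated data. Members and lists were chosen with earlier results of these data known. Alternatives were DESeq2 1.42.0 size factors, other filters and pseudocounts, per-cell means and medians, thinning, and leaving out cells.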

Additional observations from a re-analysis of the deposited data

How the results depend on the processing

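The rule already asked for 2-fold in the pool, in the mean of the cells and without the top cell, and for 1 sign in both series, so several of the following alternatives were fixed by the choice of genes. The 23 genes plotted for the rule stayed at least 2-fold apart in the same direction under 17 of 18 alternatives, and 21 of 23 did so in the series numbered above 100 alone. DESeq2 size factors, plain CPM, totals without mitochondrial genes and CT010467.1, and leaving out basal cell 2 moved none of the 52 hair cell and rule genes by more than 1.5 times. Both other filters change only which genes are counted and not the value of a gene, so they could move none. The alternatives without cells under 100 CPM of Otof and without basal cell 2, and the values within a series without the top cell, were added after the data had been seen. A filter of 20 CPM, which tests fewer genes (6499 against 10950), gave 2063 genes higher in basal IHCs and 2247 genes lower in basal IHCs. Without the cell holding most counts of each gene, 7260 genes passed the filter and 1837 genes were higher. Over the 10950 genes of the main filter the count higher was 2373 (21.7%). The list medians without that cell were −2.86 for OHC markers and −1.71 for transcription factors and Id, Hes and SOCS regulators. By the median of the cells the list medians were 0.15 for IHC markers, 0.00 for OHC markers, 0.44 for glycolysis and lactate, −0.080 for the mechanotransduction complex and 0.00 for transcription factors and Id, Hes and SOCS regulators. In the series up to 100 the medians of these lists, in the same order, were 0.074, −0.012, 1.05, −1.37 and 0.00. In the series above 100 the median of the nuclear respiratory chain was −0.62. As the mean of the series, the medians were −1.35 for OHC markers and 0.15 for the mechanotransduction complex, and a pseudocount of 5 CPM gave −1.55 for OHC markers.

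Some signs turned. In the series up to 100 the differences were 0.018 for Calb1, 0.056 for Slc26a5, 0.47 for Atp2b2, 0.12 for Chrna10, 1.13 for Calb2, −2.26 for Pcdh15 and −2.13 for Lhfpl5. By the median of the cells they were −0.063 for Ctbp2, 0.0025 for Calb2, −0.11 for Cacna1d and −4.30 for Lhfpl5. As the mean of the series Lhfpl5 was at −0.21, and without the top cell Calb1 was at 0.17. The mesenchyme and bone list had medians of −0.56 as the mean of the series and −0.61 above 100. The cause was not tested. No paired analysis was possible because the labels name no animal by which basal and apical cells could be matched, and the replicate numbers name cells in accession order only. Apical cells of the series up to 100 had a median of 2121051 counts, and the part of this depth was not tested.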

Other observations

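Proteasome and ribosomal protein genes had medians of opposite sign in the 2 series. Over the 10950 genes of the main filter the medians were −0.17 in the series above 100 and −0.02 in the series up to 100. With the filter applied within each series they were −0.15 over 11952 genes above 100 and −1.03 over 6751 genes up to 100. Of 30 proteasome genes 13 (43.3%) were at least 2-fold higher and 4 (13.3%) lower in basal IHCs, against 31.9% and 37.3% of all genes, with medians of −0.54 in the series above 100 and 1.75 in the series up to 100. Of 75 ribosomal protein genes 31 (41.3%) were higher and 15 (20%) lower, with medians of −0.20 and 0.91 in these series. The ribosomal median above 100 was thus near that of all genes. Potassium channel genes gave 5 of 20 (25%) higher and 5 (25%) lower, and efferent synapse genes 1 of 6 higher and 2 lower, none above the shares of all genes.

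Sex-linked transcripts differed between the series, and the labels used here give no sex for these mice. The summed level of Y-linked genes reached 1268 CPM in basal and 665 CPM in apical IHCs of the series above 100, and 0.667 CPM in basal and 2.96 CPM in apical IHCs of the series up to 100. Xist, the RNA of the inactive X chromosome, was at 0 in the 7 basal cells and at most 0.135 CPM in the 17 apical cells above 100. Up to 100 it ran from 0.220 to 2.15 CPM in basal and from 0 to 178 CPM in apical cells, of which 4 reached 10 CPM. The part of sex in the differences between the series was not tested.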
